A study of Solanum lycopersicum with 39 samples.

Results

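The leaf transcriptome of tomato (Solanum lycopersicum) cultivar M82 after 5 days without water was compared with that of day 0, the starting point of the drought series. Day 5 was the end of the drought treatment. The comparison used 6 of the 39 libraries of the series, 3 of each group. Values are FPKM, fragments of a gene normalized to its length and to the mapped fragments of the library. Of 34075 genes listed, the 19963 that reached 1 FPKM in 3 or more of the 21 drought libraries were tested. Plants were grown in pots at 25 °C, and both groups were labelled as 38 days old. The label does not say whether this was the age at the start of drought or at sampling. Day 0 was not a fully watered control, because it was set when a pot had lost about 20% of its mass. Day 5 plants had gone 5 more days without water, and other plants were re-watered and sampled 1 day later. No plants kept watered until day 5 were among the samples, so drought and any additional days of age cannot be told apart. No source used here gives clock times of sampling, and none states for drought whether the libraries of a group came from separate plants. The p-values therefore measure the spread between libraries within groups, pooled over all 21 drought libraries and not over the 6 compared alone.

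Leaves short of water close their stomata, which saves water and also limits the carbon dioxide that reaches the chloroplast. Abscisic acid, made from carotenoids in steps that include 9-cis-epoxycarotenoid dioxygenase, is the main hormone of this response. Light captured by the antenna proteins of photosystem I and photosystem II can then exceed what carbon fixation uses, and reactive oxygen species are formed. Leaves of many species lower the transcripts of photosynthesis genes under drought, and raise those of protective and stress-response genes.

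Replicate 3 of day 5 stood apart from its group. Over log2(FPKM + 1) of the tested genes, the other 2 libraries of day 5 correlated with each other at a Pearson r of 0.966, and with replicate 3 at 0.942 and 0.948, while replicate 3 had its highest correlation, 0.968, with replicate 1 of day 3. The libraries of day 0 correlated at 0.974 to 0.979. These are correlations across genes, and they describe the libraries only. The summed FPKM of all genes was 761241 to 773555 at day 0 and 694973 to 736107 at day 5. Between 11283 and 11711 genes were listed at 0 in each of the 6 libraries. SlActin7 (Solyc03g078400.3), a reference gene of the study, was at 264, 228 and 263 FPKM at day 0 and at 239, 226 and 320.3 FPKM at day 5, a log2 fold change of 0.04 ± 0.13 (SE) that did not pass the test and was -0.14 after median-ratio scaling.

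At day 5, 2695 genes were higher and 3542 genes were lower than at day 0, where a call needed an adjusted p up to 0.05 and a change of 1 or more in either direction on the log2(FPKM + 1) scale. These were 13.5% and 17.7% of the genes tested, 31.2% together. Without replicate 3 of day 5, 2785 genes were higher and 3716 were lower, and 2455 and 3406 of these were also called with it. The median log2 fold change of all tested genes was 0.16. After the libraries were brought to the same median ratio this median was 0.0043, and 2070 genes were called higher and 4090 lower, 10.4% and 20.5% of those tested (30.8% together), so the split between directions moved with the scaling. All 3 libraries of day 5 were above all 3 of day 0 in 39.1% of the tested genes and below them in 29.2%. Of the 6237 called genes, 6105 had groups that did not overlap, so this trait sets no called gene apart. An exact permutation test of 3 libraries against 3 cannot give a p below 0.1, the value it gave for every gene named below whose groups did not overlap.

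Much of the transcript pool was made up of different genes on the 2 days. The genes called lower made up 47.8% to 52.5% of the summed FPKM in the day 0 libraries, and 5.66%, 6.88% and 10.5% in those of day 5. The genes called higher made up 7.57% to 8.25% at day 0, and 42.0%, 40.7% and 36.0% at day 5. These shares describe genes that were chosen by this comparison and carry no test. In both sets of genes, replicate 3 was the library of day 5 nearest to day 0. Among the called genes, 307 were higher and 521 were lower by a log2 fold change of at least 3, and 74 and 87 by at least 5.

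**Figure D1:**
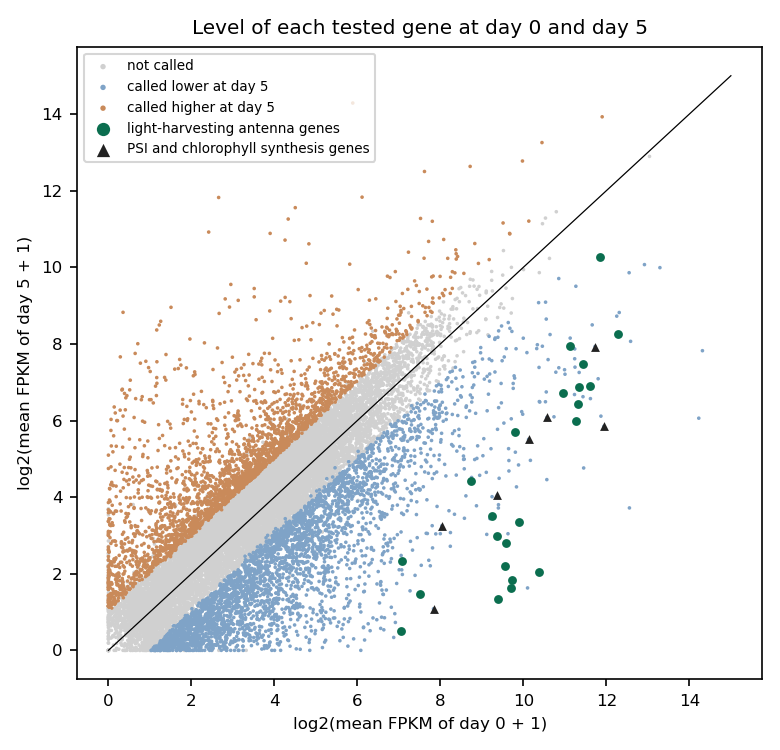
Level of each of the 19963 tested genes, as log2 of the mean FPKM of 3 libraries plus 1, at day 0 (horizontal) and day 5 (vertical), with called genes coloured and the antenna, photosystem I and chlorophyll synthesis genes marked. All 30 marked genes lie below the line of equal level.

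Among genes known only by ID, the largest rise was that of Solyc10g078770.2, from 5.73, 4.13 and 6.06 FPKM in the libraries of day 0 to 4327, 4046 and 2485 FPKM at day 5 (log2 fold change 9.14 ± 0.37 (SE), adjusted p = 6.8e-12). Solyc07g007710.4 rose from 0.308, 0.522 and 0 to 492, 468 and 396 FPKM. It was below 1 FPKM in every library of day 0 and among the abundant transcripts in every library of day 5. The largest fall was that of Solyc07g041720.1, from 5917, 6583 and 5555 to 9.84, 10.3 and 16.4 FPKM (log2 fold change -8.87 ± 0.60 (SE), adjusted p = 1.8e-09). Solyc03g083770.1 fell from 923, 1107 and 1259.6 to 0.815, 4.02 and 1.44 FPKM. In these 4 genes the groups were far apart in every library, replicate 3 included, and no description of them was found in the sources used here.

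Genes with a name were described in lists by function. The names come from a table of genes that differed in SlBBX31 overexpression and knockout lines of another cultivar, so the lists are not a sample of the leaf transcriptome. Of the 207 listed genes, 191 passed the filter on low values. In the lists with a function, 133 genes, 126 were tested, 20 were called higher and 65 lower, against 13.5% and 17.7% over all tested genes. The counts of each list below are to be read against the same 13.5% and 17.7%. Most lists are small, and their counts carry no test against this background. The median log2 fold change of these 126 genes was -1.14. Without replicate 3 of day 5, 21 were called higher and 63 lower.

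Among the lists, those of photosynthesis had the lowest medians. All 10 genes listed for the photosystem I (PSI) antenna and all 13 listed for the photosystem II (PSII) antenna were lower at day 5. The median log2 fold changes of these lists were -5.05 and -6.21. The split into PSI and PSII followed the unchecked gene names of the source table. The antenna proteins bind chlorophyll and pass the energy of light to the reaction centres. Their FPKM summed to 31565, 38671 and 36473 in the libraries of day 0, which is 4.15% to 5.00% of all FPKM, and these were the leaf markers available for a check of the tissue. At day 5 the sum was 1185, 1199 and 5363 FPKM, or 0.163%, 0.163% and 0.772% of all FPKM. Every library of day 5 was below every library of day 0, and replicate 3 was well above the other libraries of its group. In bulk leaf RNA, fewer cells of a type and less of an RNA per cell cannot be told apart. Without replicate 3 the medians of both lists were -5.90 and -7.05.

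In the PSI antenna, LHCa2 (Solyc10g006230.3) was at 2819, 3649 and 2931 FPKM at day 0 and at 41.3, 81.5 and 234 FPKM at day 5, a log2 fold change of -5.06 ± 0.46 (SE) (adjusted p = 4.8e-08). In a limma fit of the 6 libraries alone its adjusted p was larger, at 0.00069. LHCa1 (Solyc05g056050.3) fell from 657 ± 60.9 FPKM (SD, n = 3) to 6.91 ± 7.18 FPKM (SD, n = 3). The larger of the 2 LHCa4 genes (Solyc03g115900.4) was at 1739, 2232 and 1994 FPKM and then at 28.9, 27.6 and 257 FPKM. Replicate 3 was the highest library of day 5 for each of these genes. The 5 genes named LHCa3 in the source table differed in the size of their fall. The names in that table also set the PSI and PSII antenna lists, and they were not checked against sequences. Solyc03g005780.3 fell from 1104, 1481 and 1369.5 to 2.72, 2.59 and 4.02 FPKM, the largest log2 fold change of the antenna genes at -8.33 ± 0.52 (SE). Solyc10g007690.3 fell from 1856, 2710.3 and 2129.6 to 110.0, 163 and 466 FPKM, a log2 fold change of -3.43 ± 0.39 (SE). Both fell in all libraries, and the replicates of each were well separated from those of day 0. Reads of close copies may have been split between them, so values of single copies are less certain than their sum.

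In the PSII antenna, the 8 genes named LHCb1, the main protein of the trimeric antenna complex, did not fall alike. Solyc02g071030.2, with the highest level at day 5, was at 3103, 3985 and 3947 FPKM at day 0 and at 574, 513 and 2636 FPKM at day 5, so that replicate 3 came near the day 0 libraries while the others were several times lower. Its log2 fold change was -1.99 ± 0.44 (SE) (adjusted p = 0.00067), and this call was lost when no filter on low values was used (adjusted p = 0.0585). Without replicate 3 its log2 fold change was -2.75. The 7 other copies fell by between 5.54 and 8.11 on the log2 scale. Among them, Solyc02g071010.1 fell from 2171, 2728 and 2792 to 29.7, 25.4 and 203 FPKM, and Solyc02g070990.1 from 581, 617 and 816 to 1.07, 0.800 and 2.73 FPKM.

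The share of Solyc02g071030.2 in the LHCb1 signal was therefore followed, a quantity chosen after its values were seen. This copy held 28.5%, 30.3% and 28.8% of the summed LHCb1 FPKM in the libraries of day 0, and 89.5%, 89.9% and 87.8% in those of day 5, replicate 3 included. Its share was 61.9% to 68.1% on day 1, 81.4% to 89.8% on day 2, 90.2% to 91.7% on day 3 and 91.5% to 93.1% on day 4. The share at day 5 was thus slightly below that of days 3 and 4. After re-watering the share was 20.6% to 24.3%. How reads of near-identical copies were assigned bears on these shares and was not tested. The paper's RNA-seq methods, which do not name the drought libraries, kept a single alignment per read and applied a correction for reads that map to several places.

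The other PSII antenna genes were also lower in every library of day 5. LHCb3 (Solyc07g063600.3) was at 859, 1040.2 and 941 FPKM at day 0 and at 3.75, 4.58 and 19.0 FPKM at day 5. LHCb4 (Solyc09g014520.3), a minor antenna protein between the trimers and the reaction centre, was at 2586, 3044 and 2745 FPKM and then at 81.7, 81.7 and 371 FPKM. LHCb6 (Solyc01g105030.3), another minor antenna protein, fell 17.5-fold in mean FPKM, and the more abundant LHCb2 gene (Solyc07g047850.3) fell 22.1-fold. For these 4 genes replicate 3 was again the highest library of day 5, yet far below day 0.

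**Figure D2:**
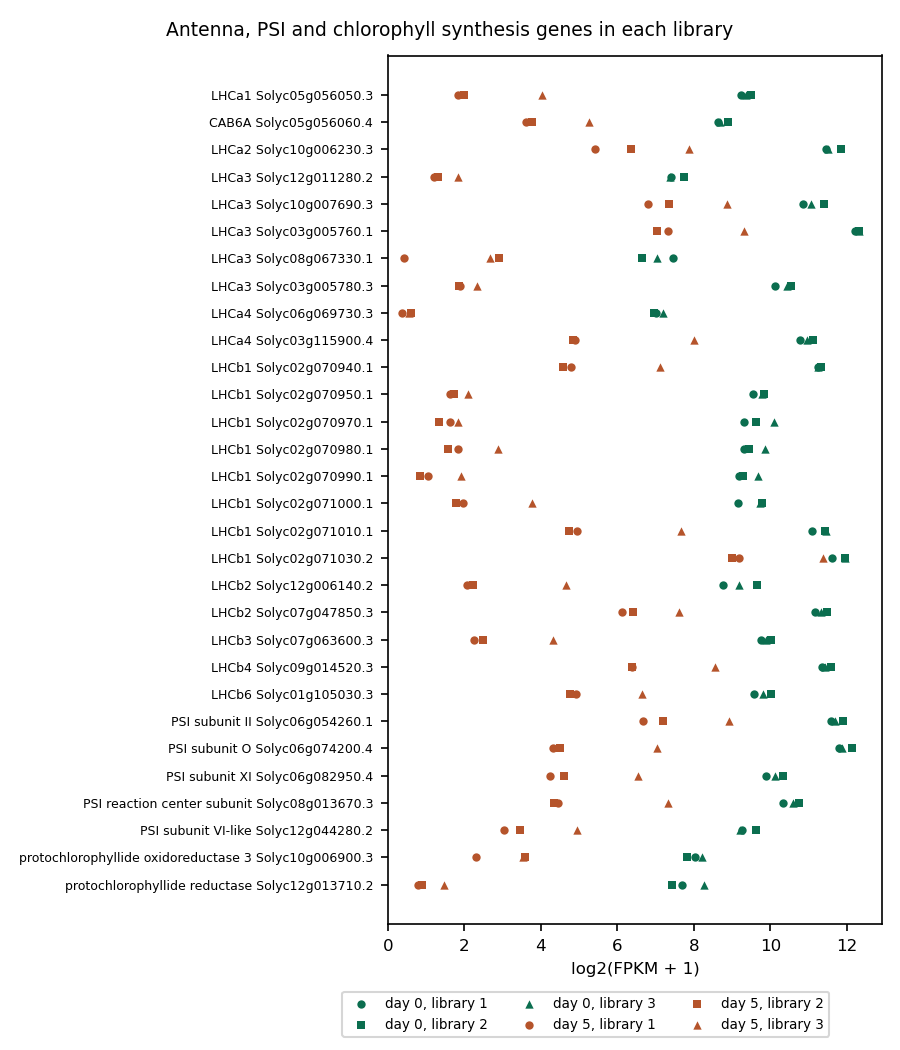
Level of 23 antenna genes and of 7 genes of photosystem I and chlorophyll synthesis in each of the 6 libraries, as log2(FPKM + 1) on the horizontal axis, with colour for the day and symbol for the library. The groups do not overlap for any gene shown, as for most called genes. The triangles of day 5 (library 3) lie to the right of the other day 5 symbols for most genes.

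All 7 genes of PSI subunits and chlorophyll synthesis were lower too, with a median log2 fold change of -5.19, and of -6.12 without replicate 3. PSI subunit O (Solyc06g074200.4) was at 3533, 4476 and 3757 FPKM at day 0 and at 19.0, 21.5 and 129 FPKM at day 5, a log2 fold change of -6.65 ± 0.58 (SE) (adjusted p = 3.2e-08). Its adjusted p was 0.00047 in a limma fit of the 6 libraries alone. PSI subunit II (Solyc06g054260.1), which forms part of the ferredoxin docking site, was at 3055, 3805 and 3304 FPKM and then at 102, 144 and 483 FPKM. It fell least of the list. The PSI reaction center subunit (Solyc08g013670.3), PSI subunit XI (Solyc06g082950.4) and the PSI subunit VI-like gene (Solyc12g044280.2) had log2 fold changes of -5.19, -4.98 and -5.55. Both genes of the light-dependent step of chlorophyll synthesis, in which protochlorophyllide is reduced, fell as well. Protochlorophyllide reductase (Solyc12g013710.2) fell from 205, 169.8 and 307 to 0.735, 0.848 and 1.78 FPKM. Protochlorophyllide oxidoreductase 3 (Solyc10g006900.3) fell from 261, 225 and 298 to 3.94, 11.02 and 10.6 FPKM.

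The 7 other plastid and photorespiratory genes were split, with 3 higher and 3 lower, and a median log2 fold change of 0.29. The median changed sign when replicate 2 of day 0 (-0.23) or replicate 1 of day 5 (-0.35) was left out, so it gives no direction. Glycolate oxidase (Solyc10g007600.3), the peroxisomal enzyme of photorespiration, was at 229, 256 and 183 FPKM at day 0 and at 9.39, 9.17 and 45.5 FPKM at day 5 (log2 fold change -3.70 ± 0.43 (SE)). The rhodanese-like protein 4 gene (Solyc10g009570.3) fell by 4.75 on the log2 scale, and palmitoyl-MGDG desaturase (Solyc03g116730.4), an enzyme of chloroplast membrane lipids, fell by 2.19. The threonine dehydratase gene (Solyc09g008670.3) is named for the enzyme that starts isoleucine synthesis, and which isoform it encodes was not checked. It rose from 5.89, 2.30 and 9.91 to 1223, 429 and 78.0 FPKM, with replicate 3 the lowest of the group (log2 fold change 5.78 ± 0.79 (SE), and 6.85 without replicate 3). Sigma factor binding protein 1 (Solyc01g096510.2) rose from 4.31, 4.91 and 17.9 to 73.1, 100.03 and 107 FPKM, at like levels in all 3 libraries of day 5. A branched-chain aminotransferase 2-like gene (Solyc03g043880.3), of a family that acts in the synthesis and breakdown of branched-chain amino acids, was near the filter at 0.566, 0.271 and 0.247 FPKM and then at 6.44, 3.54 and 1.71 FPKM.

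In the abscisic acid list, 1 of 5 genes was higher and 1 was lower, with a median log2 fold change of -0.38 (-0.63 to -0.23 over the left-out libraries, the ends being those without replicate 1 of day 5 and replicate 2 of day 0). NCED3 (Solyc07g056570.1), a 9-cis-epoxycarotenoid dioxygenase of the step that commits carotenoids to abscisic acid, was at 98.3, 102 and 90.8 FPKM at day 0 and at 289.5, 322 and 162 FPKM at day 5 (log2 fold change 1.34 ± 0.23 (SE), adjusted p = 5.5e-05). All libraries of day 5 were higher, replicate 3 by the least. Its mean was 278, 300.4, 203 and 194 FPKM on days 1 to 4, each above the day 0 mean. Xanthoxin dehydrogenase (Solyc04g071960.3), which acts after that step, fell from 12.99, 17.1 and 17.4 to 0.337, 0.909 and 1.08 FPKM (log2 fold change -3.26 ± 0.24 (SE)). Zeaxanthin epoxidase (Solyc02g090890.4), which acts before it, was at 33.6, 43.01 and 39.6 FPKM and then at 30.1, 23.9 and 61.2 FPKM, with overlapping groups and a log2 fold change of -0.12 ± 0.24 (SE) that did not pass the test. ABF3 (Solyc01g108080.4), a bZIP factor of abscisic acid responses in Arabidopsis, did not pass it either, at 17.1, 20.1 and 12.2 FPKM and then at 17.5, 11.2 and 9.12 FPKM. SAPK2 (Solyc11g010130.3), a kinase of that pathway in rice, had a log2 fold change of -0.88 ± 0.31 (SE), below the minimum, and was called lower after median-ratio scaling (-1.04), with a pseudocount of 0.1 (-1.08), without replicate 1 of day 0 (-1.005) and without replicate 3 of day 5 (-1.16).

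Of the 4 ethylene genes, 2 were called higher, with a median log2 fold change of 0.86. ERF5 (Solyc03g093560.1), an ethylene-response transcription factor, was at 8.398, 5.62 and 21.99 FPKM at day 0 and at 34.7, 55.3 and 222 FPKM at day 5, with replicate 3 far above the other libraries (log2 fold change 2.77 ± 0.52 (SE), and 1.99 without it). ACO1 (Solyc07g049530.3), an oxidase of the last step of ethylene synthesis, rose from 174, 78.2 and 136 to 514, 568 and 209 FPKM (log2 fold change 1.67 ± 0.57 (SE), adjusted p = 0.0159). This call was lost without replicate 2 of day 0 (adjusted p = 0.0755), replicate 1 of day 5 (0.0572) or replicate 2 of day 5 (0.0649).

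Of the 4 jasmonate and salicylate genes, 2 were lower, with a median of -0.52 (-0.16 without replicate 1 of day 0). A JAR1-like gene (Solyc08g068490.3), whose Arabidopsis namesake joins jasmonate to isoleucine, fell from 11.6, 17.7 and 8.03 to 1.33, 1.17 and 2.73 FPKM (log2 fold change -2.27 ± 0.30 (SE)). LOX1 (Solyc08g029000.3), a lipoxygenase, fell from 8.04, 0.401 and 3.44 to 0.394, 0.0695 and 0.0939 FPKM, and the day 0 libraries themselves differed widely. Its log2 fold change of -1.70 ± 0.44 (SE) was -1.08 without replicate 1 of day 0, and its call was lost in a fit of the 6 libraries alone (adjusted p = 0.0535). SAR DEFICIENT 1 (Solyc03g119250.4), a regulator of salicylate synthesis in Arabidopsis, was at 17.7, 13.2 and 27.0 FPKM at day 0 and at 18.7, 28.4 and 96.4 FPKM at day 5. Its log2 fold change was 0.97 ± 0.44 (SE) (adjusted p = 0.0600). It was 1.24, 1.45 and 1.17 without replicate 3 of day 0, replicate 1 of day 5 or replicate 2 of day 5, with a call in each. Without replicate 1 or replicate 2 of day 0 it was 0.94 and 0.74, with no call. Without replicate 3 of day 5 it was 0.30 (adjusted p = 0.450), so most of the difference came from that library. Among the 5 auxin and cytokinin genes, 1 was higher and 2 were lower, with a median of -0.58. LOG8 (Solyc08g062820.3), of a family that releases active cytokinins, rose from 8.81, 7.05 and 7.65 to 51.9, 28.3 and 20.9 FPKM. A zeatin O-glucosyltransferase-like gene (Solyc10g079350.3), of a family that stores cytokinin as a glucoside, fell from 6.83, 2.29 and 3.84 to 0.0814, 0.325 and 0.375 FPKM. SAUR50 (Solyc01g110570.3), of a family of small proteins induced by auxin, had a log2 fold change of -1.27 ± 0.34 (SE), and it was -0.96, below the minimum, without replicate 1 of day 0.

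In the heat response list, 1 of 4 genes was called higher, with a median log2 fold change of 0.77. HSP17.6 (Solyc08g062437.1), which encodes a chaperone of the small heat shock class, was at 0.0413, 0 and 0.127 FPKM at day 0 and at 3.97, 1.47 and 5.99 FPKM at day 5, a low level throughout (log2 fold change 2.06 ± 0.27 (SE), adjusted p = 3.3e-06). The chaperone HSP70-1 (Solyc09g011030.3) was at 16.9, 13.4 and 15.8 FPKM and then at 29.2, 28.0 and 26.2 FPKM. Its adjusted p was 4.1e-07, but its log2 fold change of 0.82 ± 0.09 (SE) was below the minimum of 1. The chaperone HSP90 (Solyc08g079170.3) was likewise at 0.73 ± 0.11 (SE) on the log2 scale (adjusted p = 1.2e-05). All 3 of these chaperone genes were higher in every library of day 5, and HSF24 (Solyc02g090820.3), a heat stress transcription factor, had overlapping groups (0.22 ± 0.25 (SE)).

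Of 8 antioxidant and peroxidase genes, 6 were tested, 3 were called higher and 1 was called lower, with a median log2 fold change of 0.78, which was 0.02 over all 8 with no filter on low values. APX-2 (Solyc09g007270.3), an ascorbate peroxidase that removes hydrogen peroxide, rose from 0.173, 0.810 and 0.282 to 32.5, 11.02 and 48.7 FPKM (log2 fold change 4.28 ± 0.38 (SE), adjusted p = 4.7e-08). A thioredoxin H4-like gene (Solyc05g006870.3), of a family of thiol reductants, rose from 2.50, 3.26 and 2.81 to 29.1, 23.4 and 21.2 FPKM, and peroxidase 47 (Solyc06g076630.3) rose from 7.46, 5.37 and 6.64 to 17.3, 15.4 and 22.3 FPKM. In all 3 of these genes the groups did not overlap, as in most called genes. SOD2 (Solyc06g048410.4), a superoxide dismutase, had overlapping groups and a log2 fold change of -0.16 ± 0.21 (SE), which was 0.15 without replicate 3 of day 5. POD (Solyc01g105070.3) was called lower (-1.23 ± 0.44 (SE)) with overlapping groups, at 17.0, 3.56 and 14.6 FPKM and then at 4.21, 5.81 and 1.79 FPKM, and the call was lost without replicate 1 of day 0 (adjusted p = 0.119), replicate 3 of day 0 (0.0950) or replicate 3 of day 5 (0.113), with no filter (0.0506) and with the 6 libraries alone (0.109), while the log2 fold change was -1.86 without replicate 2 of day 0.

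**Figure D3:**
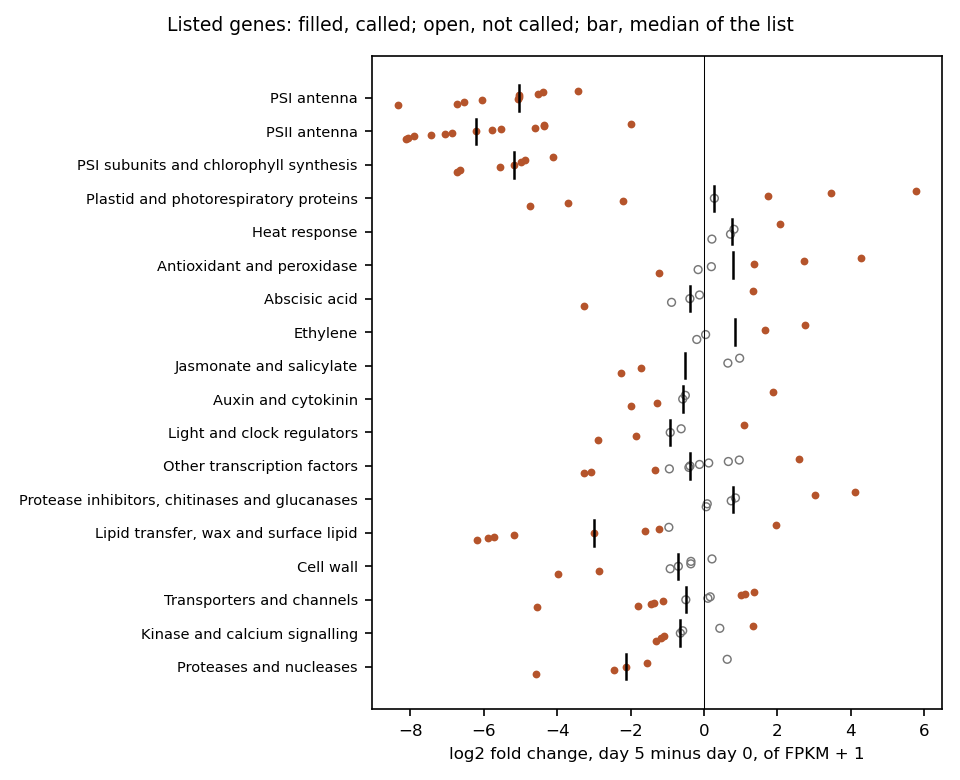
Log2 fold change of each tested gene of the function lists at day 5 against day 0, of FPKM + 1, on the horizontal axis, with filled points for called genes, open points for the others and a bar for the median of the list. All antenna, PSI and chlorophyll synthesis genes lie at or below -1.99, while most other lists hold genes on both sides of 0.

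Among the 5 light and clock regulators, 1 was higher and 2 were lower, with a median log2 fold change of -0.92. APRR5 (Solyc03g081240.3), a pseudo-response regulator of the circadian clock, fell from 56.8, 60.5 and 67.6 to 15.5, 17.57 and 15.6 FPKM, with all libraries of day 5 alike (log2 fold change -1.86 ± 0.12 (SE), adjusted p = 7.3e-10). PCL1 (Solyc06g076350.3), a clock gene in Arabidopsis, was at 13.4, 15.9 and 13.9 FPKM and then at 8.21, 6.05 and 7.27 FPKM. Its log2 fold change of -0.92 ± 0.13 (SE) was below the minimum, and it was -1.09 and called lower after median-ratio scaling, and -1.001 with a pseudocount of 0.1 and -1.01 without replicate 1 of day 5. As clock times are not given, the time of day cannot be told apart from the day of drought for these genes. A CONSTANS-LIKE 16-like gene (Solyc05g009310.3), of the family of zinc-finger regulators with B-box domains, was at 44.7, 55.0 and 62.1 FPKM and then at 1.39, 6.44 and 21.7 FPKM (log2 fold change -2.88 ± 0.49 (SE), and -3.69 without replicate 3). CONSTANS-LIKE 13 (Solyc09g074560.3) had a log2 fold change of -0.62 ± 0.13 (SE), below the minimum. SlBBX31 (Solyc06g063280.1), the B-box gene that the study is about, was at 0.552, 0.288 and 0.356 FPKM and then at 2.66, 2.02 and 1.36 FPKM. It was called higher (1.09 ± 0.24 (SE), adjusted p = 0.00064), but its log2 fold change without replicate 1 of day 5 was 0.94, below the minimum.

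Of the 11 other transcription factors, 1 was higher and 3 were lower, with a median log2 fold change of -0.38 (-0.57 to -0.11 over the left-out libraries, nearest to 0 without replicate 3 of day 5). WRKY46 (Solyc08g067340.4) was at 15.5, 4.90 and 3.77 FPKM at day 0 and at 33.4, 119.5 and 24.2 FPKM at day 5, a rise of 2.60 ± 0.70 (SE) on the log2 scale with a wide spread in both groups. A bZIP61-like gene (Solyc07g062710.4) fell from 10.5, 8.07 and 12.5 to 0.0922, 0.0996 and 0.340 FPKM. Homeobox protein 2 (Solyc02g077710.1) fell from 146, 179 and 174 to 11.2, 24.2 and 23.5 FPKM, and a GATA5-like gene (Solyc03g033660.4) had a log2 fold change of -1.33 ± 0.20 (SE). The groups did not overlap for these 4 genes, as for most called genes. Without replicate 3 of day 5, 2 genes of the list were called higher.

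In the list of protease inhibitors, chitinases and glucanases, which hold proteins of defence and wound responses, 2 of the 6 tested genes of 8 were called higher, with a median of 0.80 (0.42 to 1.30 over the left-out libraries, the ends being those without replicate 2 and replicate 3 of day 0). The acidic 26 kDa endochitinase gene (Solyc02g082920.4) was at 209, 167 and 209.5 FPKM at day 0 and at 7573, 9239 and 566 FPKM at day 5 (log2 fold change 4.13 ± 0.79 (SE), adjusted p = 0.00018). Replicate 3 was above day 0 but far below the other libraries of its group, and without it the log2 fold change was 5.42. A Kunitz trypsin inhibitor 2-like gene (Solyc03g098740.1) rose from 3.62, 5.45 and 8.96 to 124, 55.2 and 21.3 FPKM, again with replicate 3 the lowest.

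Genes of lipid transfer and surface lipids were mostly lower: 7 of the 9 tested genes of 11 fell and 1 rose, with a median log2 fold change of -2.98, which was -1.62 over all 11 with no filter on low values. The surface lipids include the wax and cutin that limit water loss from the leaf. DEA1 (Solyc08g078900.1) was at 74.2, 49.3 and 111 FPKM at day 0 and at 0.535, 0.369 and 0.376 FPKM at day 5 (log2 fold change -5.72 ± 0.31 (SE), adjusted p = 1.3e-10). A lipid-transfer superfamily gene (Solyc01g090965.1) fell from 114, 114 and 131 to 0.508, 0.744 and 0.717 FPKM, and DIR1 (Solyc03g121900.1), a lipid transfer protein of systemic resistance in Arabidopsis, from 141, 49.2 and 89.7 to 0.236, 0.717 and 0.512 FPKM. In these 3 genes replicate 3 was as low as the other libraries of day 5. 3-Ketoacyl-CoA synthase 6 (Solyc05g009270.4), which makes the very-long-chain fatty acids of wax, fell from 16.6, 23.7 and 16.1 to 1.09, 1.40 and 2.00 FPKM. WSD1 (Solyc10g009430.3), a wax ester synthase in Arabidopsis, fell by 1.62 on the log2 scale, and a GDSL esterase/lipase gene (Solyc02g071610.3) by 5.17. The gene that rose, EP1-like (Solyc07g062480.2), was at 0.453, 0.167 and 0.0510 FPKM and then at 3.14, 5.90 and 2.74 FPKM.

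Of the 7 cell wall genes, 2 were called lower, with a median of -0.70. A pectinesterase gene (Solyc02g080200.4), of enzymes that remove methyl groups from pectin, fell from 16.2, 15.9 and 44.7 to 0.351, 0.401 and 0.795 FPKM, and pectinesterase inhibitor 4 (Solyc11g019910.1) from 44.3, 55.1 and 43.5 to 4.85, 5.68 and 6.74 FPKM. Of 12 genes of transporters and channels, 11 were tested, 3 were higher and 5 were lower, with a median of -0.49 (-0.81 to -0.23 over the left-out libraries, the ends being those without replicate 1 and replicate 3 of day 5). After median-ratio scaling, and without replicate 1 of day 5, 1 was called higher. The count lower was 3 without replicate 3 of day 5 and in a fit of the 6 libraries alone, and 2 among genes of at least 5 FPKM. The genes called higher, nitrate transporter 2.7 (Solyc02g067790.4), AVT1C (Solyc03g063040.4), an amino acid transporter, and a vacuolar iron transporter 1-like gene (Solyc04g150162.1), were at 1.38 ± 0.43 (SE), 1.12 ± 0.24 (SE) and 1.01 ± 0.26 (SE) on the log2 scale. They were at 0.78 without replicate 1 of day 5, 0.74 without replicate 3 of day 5 and 0.75 without replicate 1 of day 0, in the same order, and not called there. A sulfate transporter 3.1-like gene (Solyc06g084140.4) fell from 31.5, 26.04 and 34.1 to 0.0843, 0.295 and 0.677 FPKM (log2 fold change -4.56 ± 0.23 (SE)). Lsi-1 (Solyc03g013340.3), a silicon channel in rice, and the CNGC1-like gene (Solyc05g050360.3), of the cyclic nucleotide-gated channels, had log2 fold changes of -1.79 and -1.43. The hexose transporter (Solyc09g075820.3) and an MtN21 family gene (Solyc05g005870.3) were at -1.35 ± 0.42 (SE) and -1.13 ± 0.44 (SE). The calls of these last 2 genes and of the 3 that were higher were each lost under some of the alternatives, that of the MtN21 family gene without replicate 3 of day 0 (-0.42) or without any 1 of the libraries of day 5, and that of the hexose transporter without replicate 3 of day 5 (-0.76).

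Among the 7 genes of kinase and calcium signalling, 1 was higher and 3 were lower, with a median of -0.64 (-1.15 without replicate 2 of day 5). MAPK4 (Solyc11g072630.2), a mitogen-activated protein kinase, was at 3.20, 1.48 and 2.95 FPKM at day 0 and at 9.50, 12.4 and 3.69 FPKM at day 5 (1.33 ± 0.31 (SE) on the log2 scale). The calcium sensor gene CBL4 (Solyc06g051970.3) and receptor-like protein 15 (Solyc11g011180.3) had log2 fold changes of -1.16 and -1.30. Of the 5 proteases and nucleases, 4 were lower, with a median of -2.13. AED3 (Solyc12g087940.2), an aspartyl protease of the apoplast in Arabidopsis, fell from 59.96, 31.5 and 28.3 to 0.419, 0.840 and 0.673 FPKM. The subtilases SBT1.7 (Solyc08g007680.1) and SBT1.9 (Solyc10g084320.3) and a ribonuclease LX-like gene (Solyc07g006550.2) had log2 fold changes of -1.55, -2.13 and -2.46.

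The remaining 73 genes of the source table held 64 tested genes, of which 10 were higher and 20 lower, with a median of -0.43. Solyc12g010550.1, which has no description there, rose from 25.1, 33.5 and 23.7 to 1604, 1465 and 1621 FPKM, with all 3 libraries of day 5 alike (log2 fold change 5.79 ± 0.27 (SE)). An FAD-dependent urate hydroxylase-like gene (Solyc08g078040.4) rose from 12.5, 11.9 and 11.6 to 232, 176 and 114 FPKM. The alpha subunit of the electron transfer flavoprotein (Solyc12g005200.3), which carries electrons from fatty acid and amino acid breakdown to the mitochondrial respiratory chain, rose from 8.75, 9.50 and 8.17 to 36.9, 24.4 and 21.1 FPKM. Among the genes that fell, DRT100 (Solyc01g086920.3) went from 119, 145 and 139 to 1.35, 4.47 and 3.02 FPKM and fimbrin-2 (Solyc06g083070.3), an actin-bundling protein, from 29.6, 37.0 and 43.8 to 0.607, 1.17 and 1.21 FPKM. A gene of an uncharacterized protein (Solyc12g019550.2) fell from 193, 235 and 201 to 1.64, 1.14 and 9.52 FPKM.

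To see what changed in the last day, day 5 was compared with day 4 directly. In this comparison 130 genes were higher and 142 were lower at day 5 than at day 4, 0.651% and 0.711% of those tested (1.36% together). Without replicate 3 of day 5 these counts were 197 and 396. Against day 3, 315 genes were higher and 486 lower, 1.58% and 2.43% (4.01% together), and 673 and 1062 without replicate 3. The counts therefore depended on that library. Of the 30 antenna, PSI and chlorophyll synthesis genes, 0 were called by limma between day 4 and day 5, and 3 had an unadjusted p under 0.05. The mean FPKM of 24 of them was lower on day 4 than on day 5, but of 12 of them without replicate 3 of day 5. The antenna sum was 1866, 1665 and 2093 FPKM in the libraries of day 4, above replicates 1 and 2 of day 5 and below replicate 3. Without replicate 3, LHCb4, PSI subunit II and PSI subunit XI were called lower at day 5 than at day 4, at -1.02 (adjusted p = 0.0424), -1.06 (adjusted p = 0.0248) and -1.28 (adjusted p = 0.0197) on the log2 scale.

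Named genes that were called between day 4 and day 5 followed different courses before. APRR5 was at a mean of 74.4, 65.4, 58.2 and 51.5 FPKM on days 1 to 4, and at 16.2 FPKM on day 5 (log2 fold change of day 5 against day 4 -1.61, adjusted p = 4.6e-07). The CONSTANS-LIKE 16-like gene was at 49.1 FPKM on day 3, 29.0 FPKM on day 4 and 9.84 FPKM on day 5. HSP17.6 was below 1 FPKM in mean on each of days 1 to 4 and at 3.81 FPKM on day 5. Solyc03g083770.1 was still at 90.3 FPKM on day 4 and at 2.09 FPKM on day 5, the log2 fold change being -4.99 (adjusted p = 4.6e-07). In contrast, DEA1 was at 2.197 FPKM on day 1 and was not called between day 4 and day 5 (0.09, adjusted p = 0.935).

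**Figure D4:**
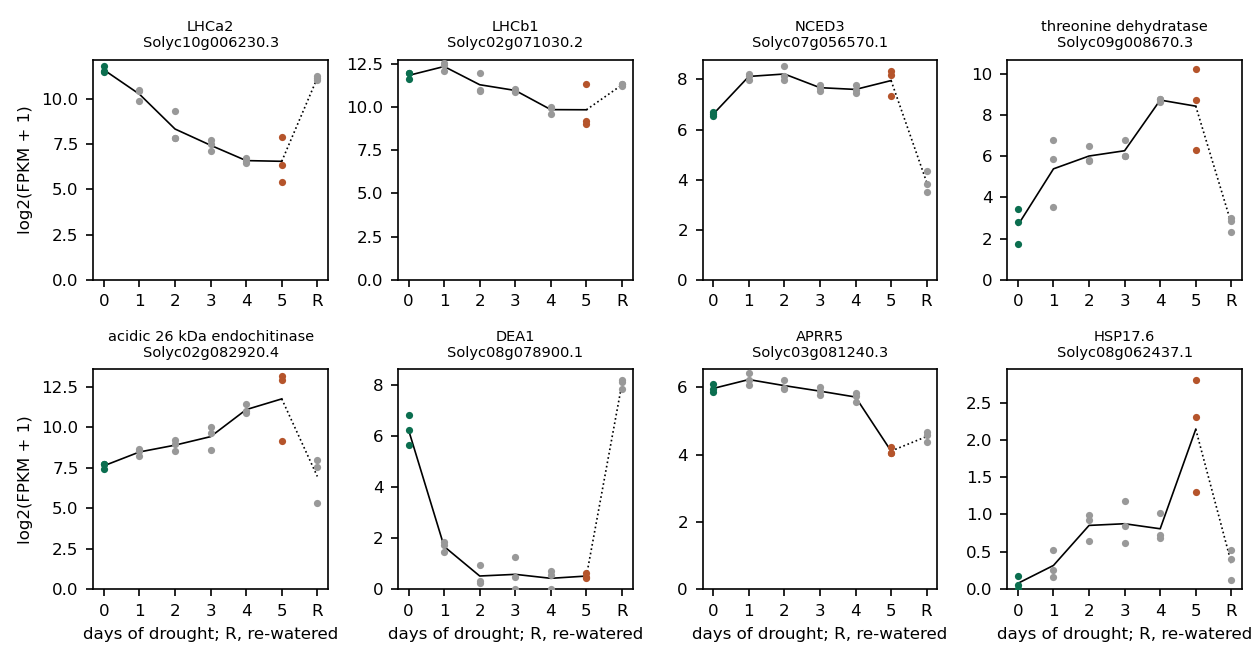
Level of 8 named genes in each of the 21 drought libraries, as log2(FPKM + 1), by days of drought, with R for 1 day after re-watering, points for libraries and a line through the group means. APRR5 and HSP17.6 moved mainly between day 4 and day 5, DEA1 had fallen by day 1, and the points of day 5 are spread for LHCa2, threonine dehydratase and the endochitinase.

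After re-watering for 1 day, 3473 genes were higher and 2514 were lower than at day 5, 17.4% and 12.6% of those tested (30.0% together). With median-ratio scaling these counts were 3826 and 2146. The contrast shares the libraries of day 5 with the comparison above, so its values are given side by side only. All 30 antenna, PSI and chlorophyll synthesis genes were higher after re-watering than at day 5, and the antenna sum was 29286, 34060.1 and 33629.7 FPKM. Against day 0, 2 of the 30 were still called lower, LHCb1 Solyc02g070990.1 (-1.31) and LHCb2 Solyc12g006140.2 (-1.90). The share of all tested genes called between re-watering and day 0 was not counted, so this number has no background beside it. LHCa2, at 3133 FPKM on day 0 and 119 FPKM on day 5, was at 2289 FPKM. DEA1, at 78.2 FPKM on day 0, was at 266 FPKM after re-watering, above its day 0 level. NCED3 was at 14.3 ± 4.59 FPKM (SD, n = 3), below both day 0 and day 5 (log2 fold change against day 5 -4.06, adjusted p = 1.5e-10, and against day 0 -2.72, adjusted p = 1.2e-07). APRR5, at 22.3 FPKM, stayed below its day 0 mean of 61.6 FPKM (log2 fold change against day 0 -1.43, adjusted p = 9.4e-08).

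The series also holds leaves of the same cultivar after 24 h at 42 °C, which share no library with the drought series. The tables were normalized separately, so counts and values are set side by side with no test between them. Of 18423 genes tested in both, 724 were higher in both, which is 29.9% of the 2424 genes higher at day 5 and 45.7% of the 1583 higher at 24 h of heat. The genes lower in both numbered 2229, which is 66.5% of the 3353 lower at day 5 and 35.9% of the 6203 lower at 24 h. With median-ratio scaling of each table these became 905 and 1894 genes, at 50.0% and 49.6% of the drought lists. As deposited, 9.31% of all genes tested in the heat table were higher and 33.1% lower at 24 h (42.4% together). With median-ratio scaling 17.8% were higher and 19.8% lower (37.6% together), so the split in heat depended on the scaling, and each pair of shares is to be read against its own.

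All 30 antenna, PSI and chlorophyll synthesis genes were lower in both stresses. LHCb1 Solyc02g071030.2, which fell by 1.99 on the log2 scale in drought, was at -7.69 in heat, where the other LHCb1 copies were between -9.15 and -6.47. HSP17.6 and APX-2 were higher in both, at 2.06 and 4.28 in drought and 6.98 and 6.54 in heat. APRR5 went in opposite directions, at -1.86 in drought and 2.45 in heat, and so did peroxidase 47, at 1.36 and -3.20. SlBBX31 was at 1.09 in drought and 4.92 in heat. The paper lists a smaller log2 fold change for SlBBX31 at 24 h of heat, calculated from FPKM values. The value here is a difference of log2(FPKM + 1), and the reason why the paper's value is smaller was not tested.

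**Figure D5:**
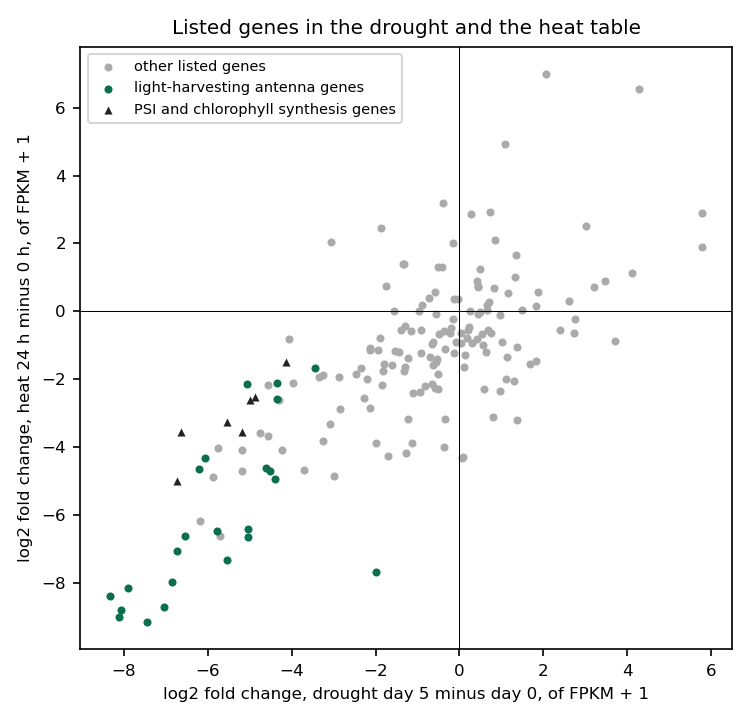
Log2 fold change of FPKM + 1 for 181 listed genes tested in both tables, day 5 against day 0 of drought on the horizontal axis and 24 h against 0 h of heat on the vertical axis. The antenna, PSI and chlorophyll synthesis genes all lie where both values are negative, and the other listed genes show all combinations of sign.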

How the data were processed

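Leaf RNA of tomato M82 was sequenced in 3 libraries per group. Trimmomatic, TopHat and Cuffdiff are the tools in the processing notes of the submitters, with no versions there. The paper gives versions and settings for its RNA-seq data, alignment with TopHat2 to the tomato genome with ITAG4.0 and Cuffdiff of the Cufflinks package, without naming the drought libraries. The authors deposited FPKM per gene and library, normalized to transcript length and mapped fragments. Fragment counts behind the values are unknown. Over genes below 0.5 FPKM, the most frequent ratio between libraries put the 6 libraries at a relative depth of 0.974 to 1.21, a rough value because 16.0% to 20.2% of these genes lay within 0.1 of it on the log2 scale. Some values of 0 may be failed estimates.

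FPKM are no basis for a count model, so log2(FPKM + 1) was fitted with limma 3.58.1 in R 4.3.3, all 21 drought libraries in a single fit of 7 group means with empirical Bayes moderation and a trend, with Benjamini-Hochberg adjustment over all tested genes. Genes that reached 1 FPKM in 3 or more libraries entered. Calls needed an adjusted p up to 0.05 and a change of 1 or more on the log2 scale. The fold change on this scale understates changes of low genes. Folds given as such are ratios of mean FPKM. The heat table was fitted in the same way. The fit was also tested on simulated data, but no outcome is given and that test does not bear on the libraries used here. The 3 columns of day 0 are numbered in the table, but their numbers are not tied to the sample labels, so replicate numbers of day 0 are those of the columns.

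Named genes were those the paper gives with an ID, members of lists drawn from the table of differing genes in its SlBBX31 lines, and by ID the 2 largest rises and falls. Members and lists were chosen with earlier results of these data known. Because 0 gene IDs were found in the RefSeq gene table (assembly SLM_r2.1), markers of further leaf cell types were not checked, and neither sequences nor coordinates are given. Alternatives were a pseudocount of 0.1, no filter, at least 5 FPKM in 3 libraries, median-ratio scaling, the 6 libraries alone, each of the 6 libraries left out in turn, and no minimum fold change. Replicate 2 of day 3 left out, and the comparisons with days 3 and 4 and with re-watering without replicate 3 of day 5, were added after seeing the data.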

Additional observations from a re-analysis of the deposited data

Results flagged for a closer look

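For 7 of the 191 tested listed genes, against 1.36% of all tested genes, the effect of day 5 against day 0 differed from that of day 4 against day 0 by a test of the difference itself, the limma contrast of day 5 against day 4. APRR5 (Solyc03g081240.3) differed by -1.61 on the log2 scale (adjusted p = 4.6e-07), the CONSTANS-LIKE 16-like gene (Solyc05g009310.3) by -2.004 (adjusted p = 0.0301) and the gene of the JmjC-domain protein JMJ524 (Solyc01g006680.4) by -1.66 (adjusted p = 0.00074). JMJ524 was at 21.7, 23.7 and 25.4 FPKM on day 4 and at 5.99, 10.4 and 4.93 FPKM on day 5. HSP17.6 (Solyc08g062437.1) differed by 1.33 (adjusted p = 0.00904) and the branched-chain aminotransferase 2-like gene (Solyc03g043880.3) by 1.24 (adjusted p = 0.0333). An uncharacterized gene (Solyc05g012230.4) was at 3.95, 3.58 and 3.14 FPKM on day 4 and at 22.9, 14.1 and 23.4 FPKM on day 5, a difference of 2.18 (adjusted p = 7.1e-06). Solyc11g021360.3, with no description, differed by -1.50 (adjusted p = 0.0366), and it did not pass the test against day 0, at -0.56. Without replicate 3 of day 5, 19 listed genes were called between day 4 and day 5, against 2.97% of all tested genes. The further ones included glycolate oxidase (Solyc10g007600.3) at -1.55 (adjusted p = 0.00293), ERF5 (Solyc03g093560.1) at -1.79 (adjusted p = 0.0115), SAR DEFICIENT 1 (Solyc03g119250.4) at -1.81 (adjusted p = 0.00366), MAPK4 (Solyc11g072630.2) at 1.57 (adjusted p = 0.00131) and the endochitinase gene (Solyc02g082920.4) at 1.96 (adjusted p = 0.0340). In that fit all 7 kept their direction and the call, at -1.58 (adjusted p = 7.2e-06), -2.81 (adjusted p = 0.00012), -1.46 (adjusted p = 0.00204), 1.00 (adjusted p = 0.0184), 1.60 (adjusted p = 0.00261), 2.06 (adjusted p = 4.5e-05) and -1.80 (adjusted p = 0.00993) in the same order.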

How the results depend on the processing

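No paired analysis was possible because no label links the column numbers of day 0 to the replicate numbers of the samples. The counts of genes higher and lower at day 5 than at day 0 stayed within 1.5 times under each other filter, pseudocount, scaling and left-out library that was run. With no minimum fold change they were 7538 and 5860. With a pseudocount of 0.1, the genes lower at day 5 than at day 4 were 233 and than at day 3 were 771. Without replicate 3 of day 5, 197 genes were higher and 396 lower than at day 4, and 673 and 1062 than at day 3. The alternatives were recomputed for 107 named genes, which were chosen for description and are no sample of all called genes. Of the 95 called genes among them, 84 kept the call under each of the 12 alternatives that gave them a value. The call was lost under at least 1 alternative in 11 genes, and 0 changed direction. At 5 FPKM or more in 3 libraries, 14 of the recomputed genes were not tested. Genes that were not called changed sign in 3 cases. SlActin7 (Solyc03g078400.3) was at -0.14 with median-ratio scaling and ranged from -0.11 to 0.14 over the left-out libraries. SOD2 (Solyc06g048410.4) ranged from -0.37 to 0.15 and zeaxanthin epoxidase (Solyc02g090890.4) from -0.51 to 0.15. The median log2 fold change of the plastid and photorespiratory list ranged from -0.35 to 1.03 over the left-out libraries, and it was 0.11 with median-ratio scaling. With at least 5 FPKM in 3 libraries it was -0.95, that of the other transcription factors was 0.0060, and that of the transporters was 0.26, each over fewer genes. Medians of other lists that moved by more than 1.5 times on leaving out a library are given with those lists above. Under the filters and the pseudocount, other medians that moved by more than 1.5 times were, at 5 FPKM or more, -1.93 (all lists with a function), 1.36 (antioxidant), -0.92 (auxin and cytokinin), -1.39 (light and clock) and -5.17 (lipid transfer). With a pseudocount of 0.1 they were -1.88 (all lists with a function), -1.98 (auxin and cytokinin), -0.94 (jasmonate and salicylate) and -3.39 (proteases and nucleases). With no filter they were 0.02 (antioxidant), -1.62 (lipid transfer), 0.42 (protease inhibitors) and -0.23 (transporters). The cause was not tested in the other cases. With 3 libraries per group and no counts, differences of genes near 1 FPKM are the least certain.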
